A study of Mus musculus with 4 samples.

Results

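Orphan G protein coupled receptors are receptors of the cell surface whose natural ligand is unknown or still debated. The 9 genes described here are Gpr6, Gpr3, Gpr12, Gpr26, Gpr101, Gpr139, Gpr83, Gpr149 and Gpr155. They were taken by symbol, matched to the mouse Ensembl identifiers of the deposited tables, and are 9 of the 37620 genes in those tables. All 9 passed the filter on low counts, and each was measured in all 4 libraries.

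RNA was sequenced from striatal spiny projection neurons of male mice aged 5 to 6 months, sorted on EGFP. The libraries were D2 Q175 and D2 WT, from Drd2-EGFP reporter mice, and D1 Q175 and D1 WT, from Drd1-EGFP reporter mice. Q175 animals were heterozygous for the zQ175 knock-in of an expanded CAG repeat in Htt, a model of Huntington's disease, and WT animals were their wild-type littermates. Every animal, WT included, carried a bacterial artificial chromosome transgene in which the Drd1 or Drd2 promoter region drives EGFP, on a C57BL6/J background. Each library was 1 pool of sorted cells from 4 animals, so every group had n = 1 and no ratio of 2 libraries could be checked against replicates. The reporter line and the pool changed together with the cell type, and their effects cannot be told apart.

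Spiny projection neurons of the indirect pathway (D2) and of the direct pathway (D1) both set their cyclic AMP level through a stimulatory G protein built on the Gnal subunit and through adenylyl cyclase 5. Gpr6, Gpr3 and Gpr12 are close relatives that raise cyclic AMP through stimulatory G proteins without any added ligand, and Gpr6 is known as a receptor of indirect-pathway neurons. Gpr26 and Gpr101 also signal to cyclic AMP without added ligand in transfected cells, and duplication of human GPR101 causes pituitary gigantism. Gpr139 responds to aromatic amino acids and is best known in the habenula. Gpr83 has been proposed as a receptor for peptides including PEN, a product of the proSAAS precursor encoded by Pcsk1n. Gpr149 has been studied mainly in mouse oocytes, where its loss raises fertility. Gpr155 is set apart from the others, since its protein joins a transporter-like part to a receptor-like part and senses cholesterol at the lysosome.

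The sequences before the start sites of Gpr6, Gpr3 and Gpr12 are shown because these receptors are close relatives. In D2 against D1 neurons Gpr6 was higher, Gpr12 was lower and Gpr3 did not pass the test given below. Whether the sequences bear on these levels was not tested. They are the 250 bases before the start, 5′ to 3′ on the gene's strand, from RefSeq on GRCm38.p6, and capitals mark matches to TGACG on either strand. TGACG is part of the cyclic AMP response element TGACGTCA, and a full element holds overlapping matches on both strands. For Gpr6 the window is chr10:41072291-41072540, for Gpr3 it is chr4:133212537-133212786 and for the first of the RefSeq starts of Gpr12 it is chr5:146585240-146585489, all on the minus strand.
Gpr6: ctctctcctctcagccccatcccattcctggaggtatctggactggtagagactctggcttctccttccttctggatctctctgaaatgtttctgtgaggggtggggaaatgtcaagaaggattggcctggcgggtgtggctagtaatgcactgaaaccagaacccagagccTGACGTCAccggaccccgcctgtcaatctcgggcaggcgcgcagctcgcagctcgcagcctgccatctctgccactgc
Gpr3: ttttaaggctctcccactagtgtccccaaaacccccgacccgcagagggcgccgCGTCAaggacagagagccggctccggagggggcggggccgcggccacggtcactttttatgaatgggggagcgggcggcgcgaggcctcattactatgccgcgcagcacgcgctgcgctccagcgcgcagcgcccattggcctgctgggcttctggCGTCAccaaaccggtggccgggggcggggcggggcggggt
Gpr12: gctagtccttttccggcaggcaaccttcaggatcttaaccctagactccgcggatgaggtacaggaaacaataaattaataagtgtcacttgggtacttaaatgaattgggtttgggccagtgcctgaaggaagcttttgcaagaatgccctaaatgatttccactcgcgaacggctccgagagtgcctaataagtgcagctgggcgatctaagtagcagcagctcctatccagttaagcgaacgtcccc

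The full element TGACGTCA was present in the Gpr6 window, from base -78 to base -71 relative to the start, and in 1.55% of the 32851 mouse windows of this length. Gpr3 held 2 separate TGACG matches and Gpr12 held 0, against 17.8% of all windows with at least 1. Gpr101, Gpr83 and Gpr155 each had 1 match to TGACG, and none of the 3 had the full element. On both strands, GGGCGG (the GC box, in 32.7% of windows) occurred 5 times in Gpr3, 7 times in Gpr155, and 1 time each in Gpr101 and at the second start of Gpr12. GCGTGGGCG (the EGR motif, in 0.536% of windows) and TATAAA (in 12.4%) had 0 matches in the windows of these 6 genes. RefSeq start sites were matched for 6 of the 9 genes. A match describes letters and does not show that a factor binds.

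The sort and the libraries were checked on marker genes. Total counts ran from 39444117 to 42787068 per library, so that 1 normalized CPM (a count scaled to library size, by the trimmed mean of M values) stood for 38.2 to 43.8 counts. The 6 D2 neuron markers summed to 6538 CPM in D2 Q175 and 11939 CPM in D2 WT, against 56.6 CPM in D1 Q175 and 108 CPM in D1 WT. The 8 D1 neuron markers summed to 133 CPM in D2 Q175 and 190.0 CPM in D2 WT, against 3333 CPM in D1 Q175 and 4781 CPM in D1 WT. Of this last sum, Sfxn1 gave 1853 CPM and Drd1 1300 CPM. The list was split by genotype, with Sfxn1, Drd1, Chrm4 and Pdyn lower in D1 Q175 than in D1 WT. Tac1 (889 against 824 CPM), Isl1 (67.7 against 50.3 CPM), Eya1 (13.2 against 11.1 CPM) and Ebf1 (33.6 against 32.4 CPM) were higher in D1 Q175. Each of the 8 was higher in D1 WT than in D2 WT, Tac1 standing at 824 and 108 CPM. Whether the reporter transgenes add to the counts of Drd1, Sfxn1, Drd2, Ttc12 or genes beside these was not tested. Markers of cortical glutamatergic neurons summed to between 1.18 and 8.45 CPM, those of striatal interneurons to between 7.47 and 11.8 CPM and those of endothelium to between 2.26 and 3.56 CPM. The share of counts from mitochondrially encoded genes was 11.1% in D2 Q175 and 6.49% in D2 WT, and 8.98% in D1 Q175 and 6.06% in D1 WT.

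Per length, Gpr6 was the highest of the 9 genes in D2 neurons and Gpr155 the highest in D1 neurons. On the authors' FPKM scale (fragments scaled to transcript length and library depth), Gpr6 had a level of 128 in D2 Q175 and 240.1 in D2 WT, where it ranked 533rd and 193rd of all genes. Gpr155 followed in D2 neurons at 38.4 FPKM in D2 Q175 and 50.7 FPKM in D2 WT, and led in D1 neurons at 52.4 FPKM in D1 Q175 and 79.8 FPKM in D1 WT. Gpr83 came next in every library, between 20.9 and 31.2 FPKM. Gpr12 lay between 14.1 and 21.0 FPKM, Gpr26 between 4.43 and 23.8 FPKM and Gpr3 between 6.37 and 8.71 FPKM. Gpr149 (1.37 to 7.09 FPKM), Gpr139 (0.135 to 3.42 FPKM) and Gpr101 (0.302 to 1.55 FPKM) were low, as was Gpr6 in D1 neurons, at 0.490 FPKM in D1 Q175 and 1.10 FPKM in D1 WT. The FPKM of Gpr139 rests on an implied length of 1.04 kb, against 4.84 kb of exons in GENCODE M21, so its place against the other genes depends on the annotation used. Implied lengths were also below these exons for Gpr83 (3.73 to 3.79 kb against 5.095 kb) and Gpr155 (4.87 to 4.95 kb against 6.68 kb). For Gpr3 they were 2.36 to 2.50 kb against 2.73 kb. The places of these genes may depend on the annotation too.

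The summed FPKM of the 9 genes was 223 in D2 Q175 and 359 in D2 WT, and 122 in D1 Q175 and 169 in D1 WT. Gpr6 made up 57.2% of this sum in D2 Q175 and 66.96% in D2 WT, against 0.401% in D1 Q175 and 0.651% in D1 WT. Without Gpr6 the order of the cell types was the other way round, with sums of 95.6 FPKM in D2 Q175 and 118 FPKM in D2 WT, against 122 FPKM in D1 Q175 and 168 FPKM in D1 WT. Within the closely related set of Gpr6, Gpr3 and Gpr12, Gpr6 held 84.9% of the FPKM in D2 Q175 and 91.2% in D2 WT, and 1.92% in D1 Q175 and 3.67% in D1 WT.

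**Figure D1:**
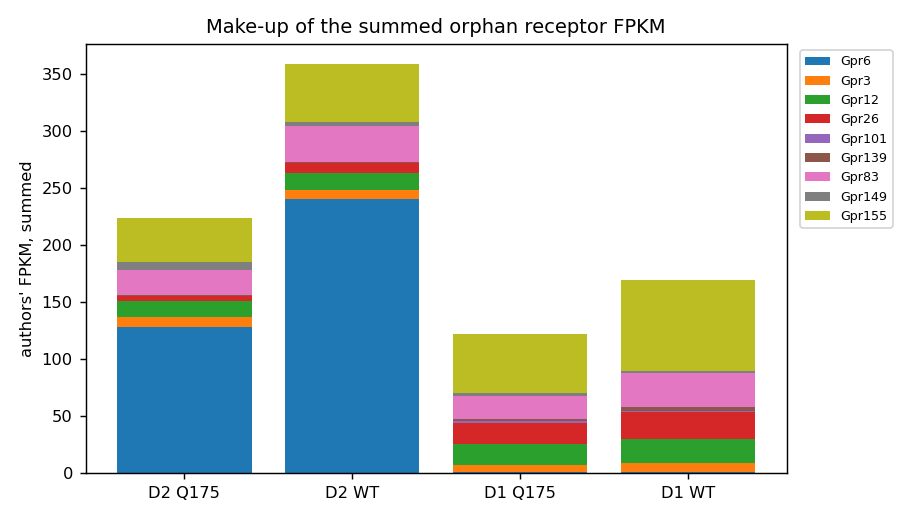
Stacked bars of the authors' FPKM of the 9 orphan receptor genes in each of the 4 libraries (n = 1 library per bar, y axis from 0). Gpr6 fills 57.2% of the D2 Q175 bar and 66.96% of the D2 WT bar, and under 1% of both D1 bars, where Gpr155 is the largest piece.

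The comparison of D2 with D1 neurons asked which orphan receptors separate the pathways. Gpr6 and Gpr149 were higher in D2 neurons, and Gpr26, Gpr139, Gpr101, Gpr155 and Gpr12 were lower. Gpr3 and Gpr83 did not pass the test. Thus 7 of 9 passed in the fit to all 4 libraries (edgeR quasi-likelihood test with cell type and genotype as terms, two-sided, Benjamini-Hochberg adjusted p under 0.05), 2 of them higher in D2, where 5.99% of all 15668 genes tested were, and 5 lower, where 6.68% were. In either direction 12.7% of all genes passed. The genes were picked with earlier results of these data known, so this share describes them and no more. The fit has 1 residual degree of freedom, and its spread is how far the cell type difference departs from itself between the genotypes.

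Gpr6 (ENSMUSG00000046922, chromosome 10) had 9695 counts in D2 Q175 and 17446 counts in D2 WT, against 35 counts in D1 Q175 and 77 counts in D1 WT. As normalized CPM these were 221 and 439 in the D2 libraries, against 0.838 and 2.01 in the D1 libraries, so the cell types did not overlap. The difference of D2 over D1 was 7.87 ± 0.13 log2 units (SE; edgeR adjusted p = 5.41e-19), the smallest p of all genes tested in that fit. The level in D1 was 0.378% of that in D2 among Q175 libraries and 0.459% among WT libraries. Drd2 and Adora2a are receptors that mark indirect-pathway neurons. The same share was 0.235% in Q175 and 0.413% in WT for Drd2, and 0.260% and 0.359% for Adora2a. For Ttc12 it was 0.368% and 0.676%, and for the other D2 markers Penk, Sp9 and Plxdc1 between 1.13% and 6.86%. The Drd2 promoter region drives the D2 reporter, and whether the transgene adds to Drd2, Ttc12 or genes beside these was not tested. Whether the D1 counts of Gpr6 come from D2 cells in the sort was not tested.

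Gpr149 (ENSMUSG00000043441, chromosome 3) was the other gene higher in D2 neurons. It stood at 29.2 CPM in D2 Q175 and 15.6 CPM in D2 WT, against 8.57 CPM in D1 Q175 and 5.96 CPM in D1 WT. Both D2 libraries were above both D1 libraries, with a difference of 1.60 ± 0.12 log2 units (SE; edgeR adjusted p = 1.36e-08). Unlike Gpr6, it kept 29.3% of its D2 level in D1 neurons among Q175 libraries and 38.1% among WT libraries.

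Among the genes lower in D2 neurons, Gpr26 (ENSMUSG00000040125, chromosome 7) had the highest counts apart from Gpr155. It stood at 50.1 CPM in D2 Q175 and 104 CPM in D2 WT, against 201 CPM in D1 Q175 and 284 CPM in D1 WT. The cell types did not overlap, and the difference of D2 over D1 was -1.72 ± 0.11 log2 units (SE; edgeR adjusted p = 3.64e-10). Between single libraries the log2 ratio of D2 over D1 was -2.005 in Q175 (95% counting interval -2.07 to -1.94) and -1.45 in WT (-1.50 to -1.40). Gpr26 in D2 neurons was at 24.9% of its D1 level among Q175 libraries and 36.6% among WT libraries. Drd1, whose promoter region drives the D1 reporter, was at 2.34% and 2.54%. Tac1 was at 9.04% and 13.2%, Eya1 at 16.0% and 9.51%, and the other D1 markers at between 0.340% and 5.13%.

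Gpr139 (ENSMUSG00000066197, chromosome 7) was scarce in all libraries. It had 6 counts in D2 Q175 (exact 95% Poisson interval 2.20 to 13.1) and 28 counts in D2 WT (18.6 to 40.5), against 72 counts in D1 Q175 (56.3 to 90.7) and 140 counts in D1 WT (118 to 165). These intervals do not overlap between the cell types, and D2 over D1 was -2.76 ± 0.32 log2 units (SE; edgeR adjusted p = 3.97e-06). Gpr101 (ENSMUSG00000036357, chromosome X), likewise low, had 171 counts in D2 Q175 and 67 counts in D2 WT, against 338 counts in D1 Q175 and 162 counts in D1 WT. In CPM the D2 Q175 library, at 3.90, lay close under D1 WT at 4.24, and both D2 libraries were below both D1 libraries. The difference was -1.17 ± 0.17 log2 units (SE; edgeR adjusted p = 8.00e-05), and limma on log2(FPKM + 0.1) gave an adjusted p of 0.0666.

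Gpr155 (ENSMUSG00000041762, chromosome 2) stood at 183 CPM in D2 Q175 and 259 CPM in D2 WT, against 249.6 CPM in D1 Q175 and 402 CPM in D1 WT. D2 WT was above D1 Q175, so the cell types overlapped across genotypes, and within each genotype D2 was the lower (-0.54 ± 0.09 log2 units, SE; edgeR adjusted p = 0.000165). Gpr12 (ENSMUSG00000041468, chromosome 5) had 34.0 CPM in D2 Q175 and 38.1 CPM in D2 WT, against 44.4 CPM in D1 Q175 and 53.4 CPM in D1 WT, with no overlap and a difference of -0.44 ± 0.09 log2 units (SE; edgeR adjusted p = 0.00188). For Gpr12, limma on log2(FPKM + 1) gave an adjusted p of 0.0595.

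Gpr83 (ENSMUSG00000031932, chromosome 9) was at 80.9 CPM in D2 Q175 and 122 CPM in D2 WT, against 75.3 CPM in D1 Q175 and 115 CPM in D1 WT, a difference of 0.10 ± 0.08 log2 units (SE; edgeR adjusted p = 0.483). Its values went with genotype and overlapped between cell types. Gpr3 (ENSMUSG00000049649, chromosome 4) had 21.1 CPM in D2 Q175 and 20.5 CPM in D2 WT, against 15.4 CPM in D1 Q175 and 19.3 CPM in D1 WT (0.27 ± 0.11 log2 units, SE; edgeR adjusted p = 0.126). The closely related set thus held 1 gene higher in D2, Gpr6, 1 lower, Gpr12, and 1 that did not pass, Gpr3.

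**Figure D2:**
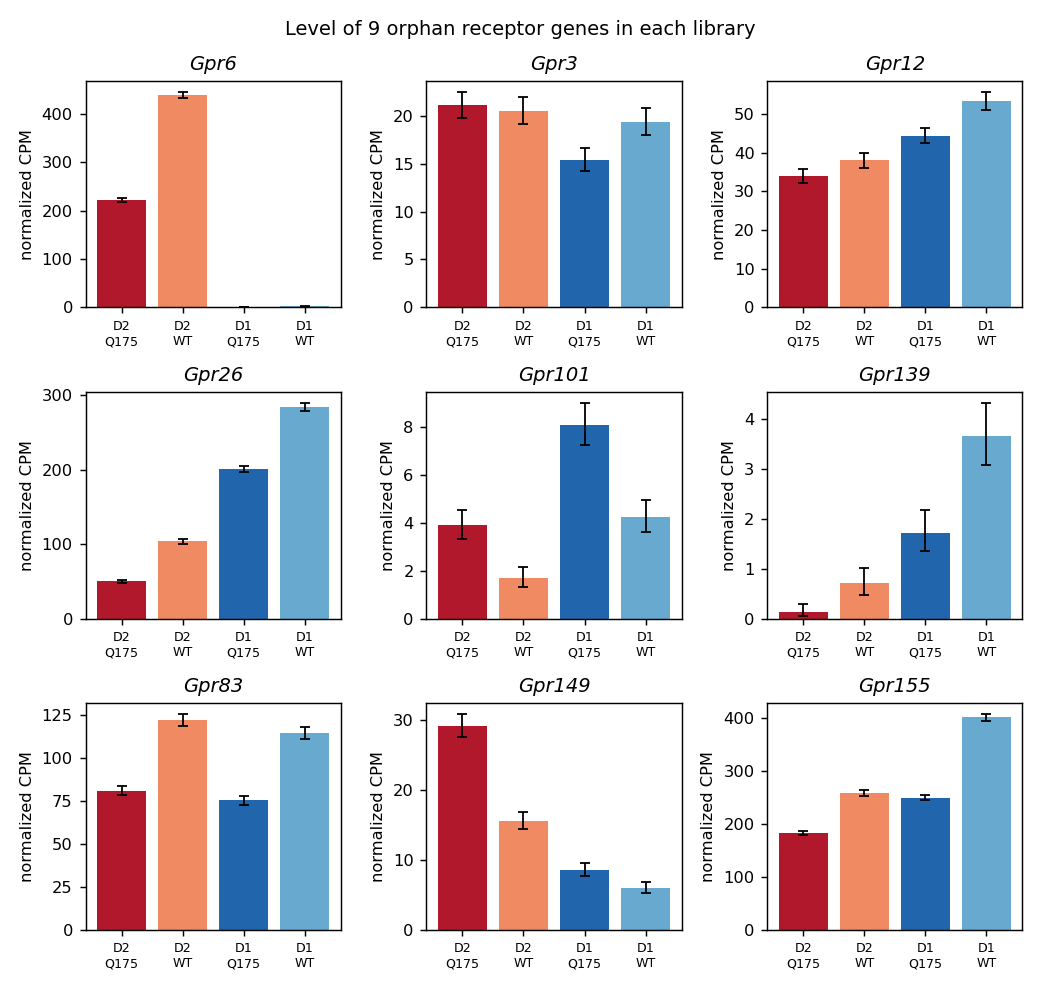
Normalized CPM of each orphan receptor gene in the 4 libraries, from D2 Q175 on the left to D1 WT on the right (bars from 0, 1 library each, black bars are exact 95% Poisson intervals of the counts). Gpr6 reaches 221 and 439 CPM in the D2 libraries and at most 2.01 CPM in the D1 libraries, while Gpr83 is lower in both Q175 libraries than in both WT libraries.

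By size alone (a change of 2-fold or more, with 5 CPM or more in one of the libraries), Gpr6 (log2 ratio 7.73), Gpr149 (1.38) and Gpr26 (-1.45) were apart between D2 WT and D1 WT, where 2.1% of 10838 genes compared were (0.867% higher and 1.24% lower). Between D2 Q175 and D1 Q175 the genes were Gpr6 (7.96), Gpr149 (1.77), Gpr26 (-2.005) and Gpr101 (-1.04), beside 1.85% of 11000 genes compared (0.764% higher and 1.08% lower). The median of the members compared was -0.14 in Q175 (8 genes) and 0.09 in WT (7 genes), beside -0.012 and -0.025 for all genes compared. Markers of cortical glutamatergic neurons moved with cell type, summing to 2.42 CPM in D2 Q175 and 1.18 CPM in D2 WT, against 8.45 CPM in D1 Q175 and 5.60 CPM in D1 WT, with Slc17a6 at 0 in D1 WT. Their part in the genes lower in D2 was not tested.

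The comparison of Q175 with WT asked which of these receptors change with the knock-in. Gpr6, Gpr26, Gpr139, Gpr83 and Gpr155 fell in Q175 and Gpr101 and Gpr149 rose, while Gpr12 and Gpr3 did not pass. In the same fit, now for genotype, 7 of 9 passed: 5 were lower, where 14.1% of the 15668 genes tested were, and 2 higher, where 12.8% were. In either direction 26.9% of all genes passed, with 2005 higher and 2206 lower, so 47.6% of the calls were higher. With library totals in place of the scaling used here, 67.3% of the calls were higher. In sorted pools, fewer cells of a type and less RNA per cell cannot be told apart. The labels give no batch, and anything else that both Q175 pools shared cannot be told apart from genotype.

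Gpr6 was near 2-fold lower in Q175 where it is abundant. In D2 neurons it stood at 221 CPM in Q175 and 439 CPM in WT, a log2 ratio of -0.99 (95% counting interval -1.02 to -0.95), lower than in all but 1.07% of genes compared. In D1 neurons, at 0.838 CPM in Q175 and 2.01 CPM in WT, the log2 ratio was -1.22 (-1.89 to -0.67). The shared effect was -1.02 ± 0.11 log2 units (edgeR, SE, adjusted p = 1.25e-06), and both ratios were below 0. The 6 D2 markers in the D1 libraries summed to 56.6 CPM in D1 Q175 and 108 CPM in D1 WT, of which Penk, which was also lower in D2 Q175 than in D2 WT (log2 ratio -1.06), gave 41.7 CPM in D1 Q175 and 84.2 CPM in D1 WT. Within D1, the log2 ratio of Q175 over WT was -1.33 for Drd2, -1.16 for Adora2a and -0.88 for Ttc12, but 0.43 for Sp9 and 0.07 for Plxdc1. Their part in the Gpr6 value of D1 was not tested.

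Gpr26 was lower in Q175 in D2 and in D1, with a shared effect of -0.77 ± 0.10 log2 units (edgeR, SE, adjusted p = 2.23e-05). Its log2 ratio was -1.05 in D2 neurons (-1.13 to -0.98) and -0.50 in D1 neurons (-0.54 to -0.46), so the counting intervals of the cell types were apart. The difference of D2 minus D1 was -0.55 with a counting SE of 0.04, and with 1 library per group it could not be tested against the spread between animals. Gpr26 was the single member at least 2-fold lower in D2 Q175 at a CPM of at least 5, where 1.06% of 10961 genes were and 2.41% were 2-fold apart in either direction. It missed that size with library totals (-0.98) and on the FPKM scale (-0.96).

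Gpr139 had a shared effect of -1.37 ± 0.30 log2 units (edgeR, SE, adjusted p = 0.00249), from low counts. Its log2 ratio was -2.02 in D2 neurons (-3.92 to -1.06, with 6 counts in Q175 and 28 in WT) and -1.07 in D1 neurons (-1.52 to -0.67, with 72 and 140 counts). The DESeq2 Wald test gave an adjusted p of 0.0546. Gpr83 fell in both cell types by nearly the same amount, with log2 ratios of -0.59 in D2 (-0.65 to -0.53) and -0.61 in D1 (-0.67 to -0.54) and a shared effect of -0.60 ± 0.08 log2 units (SE; edgeR adjusted p = 1.78e-05). For Gpr155 the log2 ratio was -0.50 in D2 (-0.54 to -0.46) and -0.69 in D1 (-0.72 to -0.65), and the shared effect was -0.59 ± 0.09 log2 units (SE; edgeR adjusted p = 4.38e-05). Its counts were not whole in the deposited table, and it overlaps the antisense genes Gm13703 and Gm13709, which stayed at or under 0.403 CPM in every library.

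Gpr101 rose 2.07-fold in Q175, by 1.05 ± 0.17 log2 units (SE; edgeR adjusted p = 0.000163, higher in both cell types). It stood at 3.90 CPM in D2 Q175 and 1.69 CPM in D2 WT (log2 ratio 1.19, 0.80 to 1.64), and at 8.09 CPM in D1 Q175 and 4.24 CPM in D1 WT (0.93, 0.66 to 1.21). Gpr149 rose by 0.74 ± 0.12 log2 units (SE; edgeR adjusted p = 0.000176). Its log2 ratio was 0.90 in D2 (0.76 to 1.04) and 0.52 in D1 (0.28 to 0.77), and limma on log2(FPKM + 1) gave an adjusted p of 0.0525. The deposited Gpr149 count in D1 WT, 228.04, was not whole. Both genes were higher in Q175 in each cell type, and neither was 2-fold higher at a CPM of at least 5. In these single-library comparisons, 1.35% of genes were 2-fold higher in D2 and 1.12% in D1. In D1 neurons 0 of the members compared were 2-fold apart, against 1.82% of 10926 genes in either direction and 0.705% lower.

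For Gpr12 the shared effect of genotype was -0.22 ± 0.09 log2 units (SE; edgeR adjusted p = 0.0755), and the log2 ratio was -0.16 in D2 (-0.27 to -0.06) and -0.26 in D1 (-0.36 to -0.17). Gpr3 had an effect of -0.14 ± 0.11 log2 units (SE; edgeR adjusted p = 0.373), with a log2 ratio of 0.04 in D2 (-0.10 to 0.18) and -0.33 in D1 (-0.49 to -0.18). It shares 204 bases of exon with Cd164l2 on the other strand, which lay between 3.61 and 4.403 CPM, so some of its counts are uncertain. The median log2 ratio of the members compared was -0.50 in D2 and -0.33 in D1, over 7 genes each, beside -0.03 and -0.04 for all genes compared.

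**Figure D3:**
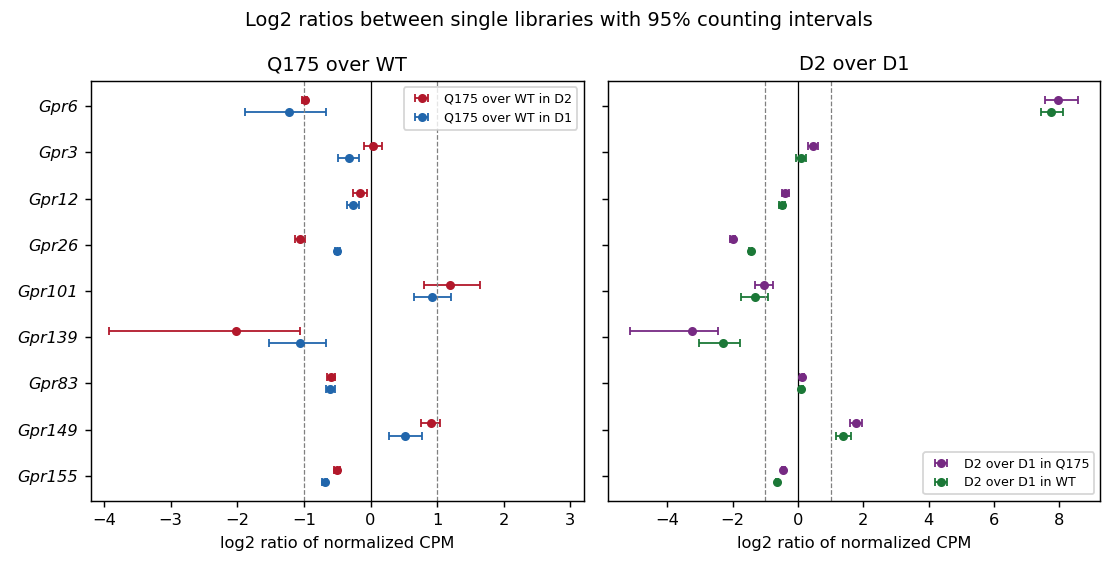
Log2 ratios of normalized CPM for each orphan receptor gene, Q175 over WT within D2 and within D1 (left) and D2 over D1 within Q175 and within WT (right), with 95% counting intervals and dashed lines at a 2-fold change. The Gpr26 ratios of Q175 over WT lie at -1.05 in D2 and -0.50 in D1, and the Gpr6 ratios of D2 over D1 lie at 7.96 in Q175 and 7.73 in WT.

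Marker sums moved with genotype too. Spiny neuron markers shared by D1 and D2 cells (7 genes) summed to 6431 CPM in D2 Q175 and 10302 CPM in D2 WT, and to 6278 CPM in D1 Q175 and 10242 CPM in D1 WT. These 7 genes fell unevenly in Q175. Pde10a (log2 ratio -1.35 in D2 and -0.999 in D1), Rgs9 (-0.76 and -0.67) and Ppp1r1b (-0.63 and -0.83) fell most. Bcl11b (-0.44 and -0.50), Foxp1 (-0.35 and -0.40) and Meis2 (-0.29 and -0.37) fell less, and Gad1 (-0.02 and -0.08) hardly moved. Summed oligodendrocyte markers (7 genes) stood at 511 CPM in D2 Q175 and 392 CPM in D2 WT, and at 435 CPM in D1 Q175 and 362 CPM in D1 WT. Astrocyte markers (7 genes) summed to 241 CPM in D2 Q175 and 191 CPM in D2 WT, and to 176 CPM in D1 Q175 and 161 CPM in D1 WT, and microglia markers (8 genes) to 39.3 CPM in D2 Q175 and 31.4 CPM in D2 WT, and to 34.1 CPM in D1 Q175 and 26.4 CPM in D1 WT. No marker of these 3 glial types was at 0 in any library. Their part in the rise of Gpr101 and Gpr149 was not tested.

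**Figure D4:**
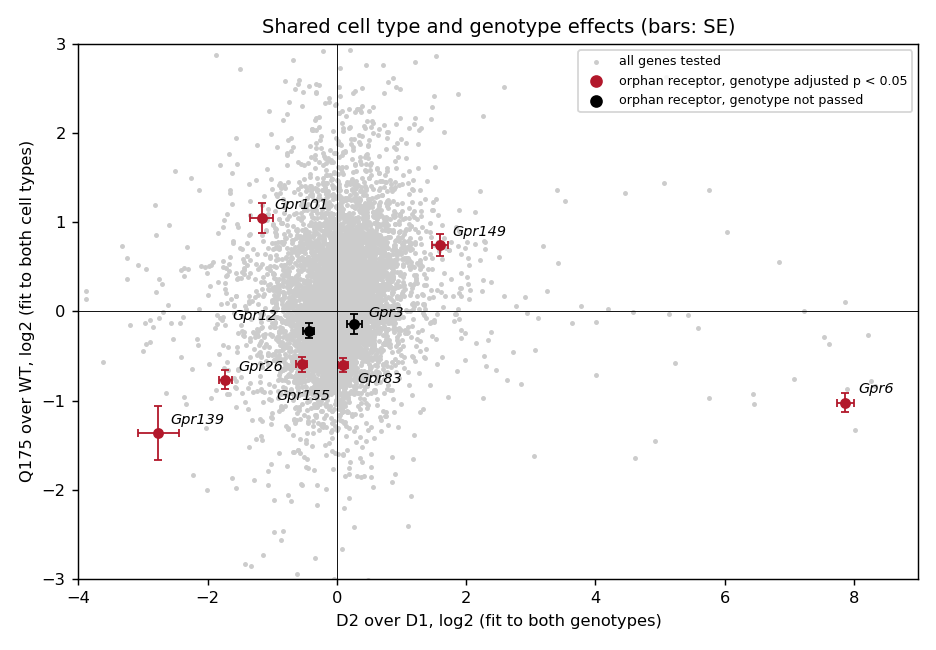
Shared cell type effect (x axis, D2 over D1, log2) against shared genotype effect (y axis, Q175 over WT, log2) from the fit to all 4 libraries, with SE bars on the orphan receptors and all other genes tested in grey (axes cropped to the range shown). Gpr101 and Gpr149 lie above 0 on the y axis at opposite sides of the x axis, and Gpr6 lies at 7.87 and -1.02, far to the right of the other 8.

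The combination of both effects differed from gene to gene. Of the 5 genes that fell in Q175, Gpr6 was the D2-enriched one, Gpr26, Gpr139 and Gpr155 were higher in D1, and Gpr83 did not differ between cell types by the test. Of the 2 that rose, Gpr149 was higher in D2 and Gpr101 in D1. For the 5 members with a range of at least 1 log2 unit over the 4 libraries and at least 5 CPM in one of them, the genes of most similar pattern were found by the distance of centred log2 CPM over the 4 libraries, among 11151 genes. Nearest to Gpr6 were Adora2a (0.53), Drd2 (0.57) and Ankk1 (0.60), the gene beside Drd2. Whether the D2 reporter transgene adds to the Drd2 and Ankk1 values was not tested. Nearest to Gpr26 were Igfbp4 (0.25), Gm10706 (0.25) and Cbfa2t3 (0.30), and nearest to Gpr101 were Ccdc9b (0.20), Pck2 (0.21) and Gm12033 (0.24). Gpr149 was closest to Wscd1 (0.09), Tacr1, the substance P receptor gene (0.32), and Homer2 (0.35). For Gpr155 the nearest were Wipf1 (0.04), Sec14l1 (0.10) and an unnamed gene model, and 919 genes lay within 0.5 of it, while 0 lay within 0.5 of Gpr6. Such a distance over 4 libraries is a description and carries no test.

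Other genes listed as orphan receptors were set beside these genes from a list of 61, of which 60 were in the tables and 39 passed the filter. Whether each of them encodes a G protein coupled receptor was not tested. In Q175, 7 of the 39 rose and 8 fell, or 38.5% in all, beside 26.9% of all genes, and the median effect was 0.10 log2 units against -0.0033. Gpr137c (-0.67), Gpr158 (-0.53), a receptor for glycine, and Gpr153 (-0.49) fell. Gpr37l1, a glial receptor gene (0.48), Gpr137b (0.41), Gpr19 (0.36) and Gpr137 (0.34) rose. Between cell types 5 of 39 were higher in D2 and 4 lower, or 23.1% in all, beside 5.99% higher, 6.68% lower and 12.7% in either direction over all genes. They included Gpr37l1 (0.54) among the higher and Gpr153 (-0.59), Gpr22 (-0.53) and Gpr176 (-0.41) among the lower. Gpr52 was not analysed here.

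The cyclic AMP pathway, onto which Gpr6, Gpr3, Gpr12, Gpr26 and Gpr101 signal, had 25 genes tested. Of these, 10 were lower in Q175 and 2 higher, or 48% in all, beside 14.1% lower, 12.8% higher and 26.9% in either direction over all genes. The median effect was -0.16 log2 units, against -0.0033 over all genes. The phosphodiesterase genes Pde10a (-1.17) and Pde7b (-0.92) and the adenylyl cyclase genes Adcy9 (-0.94) and Adcy5 (-0.83) had the lowest values, and Gnas (0.55) and Adcy2 (0.48) were the genes that rose. Adcy5 stood at 1440.4 CPM in D2 Q175 and 2613 CPM in D2 WT, and at 1492 CPM in D1 Q175 and 2599 CPM in D1 WT. Gnal, the striatal stimulatory subunit gene, had an effect of -0.39 ± 0.09 log2 units (edgeR, SE, adjusted p = 0.00337). Between cell types 4 of the 25 were higher in D2, namely Gnas (3.43), Adcy1 (0.42), Pde4b (0.41) and Pde4a (0.28), and 4 lower, namely Adcy2 (-1.07), Adcy9 (-0.60), Prkar1b (-0.37) and Pde7b (-0.29). That is 32% in all, beside 5.99% higher, 6.68% lower and 12.7% in either direction over all genes. Gnas counts are uncertain, since other transcripts of its imprinted locus overlap it.

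Genes of receptor partners and proposed ligands gave 13 tested members. The receptor kinase genes Grk3 (1.16) and Grk2 (0.31) rose in Q175, while the kinase gene Grk5 (-0.36) and the arrestin gene Arrb1 (-0.32) fell, so 30.8% passed, close to the 26.9% over all genes, and the median effect was -0.11 log2 units. Grk3 stood at 7.22 CPM in D2 Q175 and 2.36 CPM in D2 WT, and at 3.13 CPM in D1 Q175 and 2.04 CPM in D1 WT. Between cell types Grk3 (0.79) was higher in D2, and Gnai1 (-1.12), which encodes an inhibitory G protein subunit, Grk5 (-0.55), Grk2 (-0.31) and Gnaq (-0.27) were lower, or 38.5% in all, beside 12.7% over all genes. Pcsk1n, which encodes the proSAAS precursor, had a genotype effect of 0.12 ± 0.08 log2 units (SE; edgeR adjusted p = 0.271).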

How the data were processed

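RNA from pools of sorted striatal neurons of 4 animals each was sequenced as paired reads, with 1 library per group. The authors deposited estimated counts (unnormalized) for each Ensembl gene, and 18.7% of these values were not whole. The deposited FPKM table holds FPKM, scaled by the authors to length and depth, per the file title. Per the submitters' processing notes, CASAVA 1.8.2 was used. Aligner, counter, genome build and strand setting were not given in the sources used here, so genes with overlapping partners are uncertain.

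GENCODE M21 (GRCm38) gave a symbol to 32897 of the 37620 identifiers and also gave exon overlaps and gene order. Counts were rounded and scaled by TMM in edgeR 4.0.16 (R 4.3.3). Log2 ratios between single libraries used a prior count of 2 and have 95% exact conditional binomial intervals. These and the Poisson intervals cover counting error only, since reads are not independent molecules. Shared effects of genotype and cell type were tested with the edgeR quasi-likelihood test on all genes passing filterByExpr (15668), with Benjamini-Hochberg adjustment at 0.05. The SE of a shared effect was worked back from that test, as the absolute log2 effect over the square root of its F statistic. It is therefore no separate estimate of spread. Because no group has replicates, p-values rest on 1 residual degree of freedom moderated across genes, and a gene that moved in 1 cell type can pass. Alternatives were DESeq2 1.42.0, limma 3.58.1 on log2(FPKM + 0.1) and log2(FPKM + 1) for genes with at least 0.1 FPKM, other scalings, no filter and a CPM minimum of 1.

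Named genes were all 9 orphan receptors, up to 4 genes in each direction per list and effect among those passing at a CPM of at least 5, and the 3 nearest patterns of each variable member. One gene that these rules name is not reported here. The members, lists and rules were chosen with earlier results of these data known. Genes named beyond these rules (Adcy5 levels, Gnal, Pcsk1n and neighbours) were picked with their values in view.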

Additional observations from a re-analysis of the deposited data

Results flagged for a closer look

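Gpr3 was the single orphan receptor of the 9 whose ratio of Q175 over WT pointed in opposite directions in the cell types. Its log2 ratio was 0.04 in D2 neurons (95% counting interval -0.10 to 0.18) and -0.33 in D1 neurons (-0.49 to -0.18), and D2 minus D1 was 0.37 with a counting SE of 0.10. With 1 library per group this difference was not tested, and the D2 interval includes 0.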

How the results depend on the processing

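No paired analysis was possible because each group has 1 library and the labels give no replicate numbers. Leaving out a library leaves no residual degree of freedom, and the genotype effect is then the ratio in the other cell type, given above. The genotype and cell type effects of all 9 genes kept their sign under every alternative. Without cell type in the model, 0 members were higher and 0 lower in Q175, and over all genes 2 and 2. Without genotype in the model, 1 member was higher and 0 lower in D2, and over all genes 32 and 46. With the other term left out, the difference between cell types or genotypes counts as spread. Apart from those models, members called by genotype changed with limma on log2(FPKM + 1) (1 higher), and Gpr139 did not pass in DESeq2. By cell type, that limma fit called 3 members lower, without Gpr12 and Gpr101, and limma on log2(FPKM + 0.1) lost Gpr101.

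Over all genes, genotype called 696 higher and 1241 lower in DESeq2, 1002 and 1180 without a filter, 1382 lower with library totals, 755 lower with limma at a pseudocount of 0.1, and 1205 and 622 at 1. Cell type called 361 higher and 489 lower in DESeq2, 286 and 377 without a filter, 270 and 338 with limma at a pseudocount of 0.1, and 172 and 232 at 1. The cause of these changes was not tested.

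Of members 2-fold apart, library totals gave 1 higher in D1 Q175 (Gpr101) and 0 lower in D2 Q175, FPKM gave 0 lower in D2 Q175 and 1 lower in D2 over D1 in Q175, and over all genes FPKM gave 50 lower in D1 Q175. A CPM minimum of 1 gave, for Q175 over WT, 383 genes higher and 154 lower in D1 (2 members lower) and 458 and 232 in D2 (1 member higher). For D2 over D1 it gave 194 higher and 255 lower in WT (3 members lower) and 206 and 227 in Q175. Scaling by library totals moved the median ratio of all genes by 0.10 in D1 and 0.08 in D2, and FPKM by 0.11 in D1, so changes are read relative to the TMM scale. The share of 2-fold calls that were higher in D1 Q175 was 61.3%, 74.6% with library totals and 75.8% with FPKM, and in D2 Q175 56.1%, 67.9% and 66.3%. Depth limits Gpr139, whose 6 counts in D2 Q175 allow 2.20 to 13.1.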

Other observations

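Genes beside the members on the chromosome were looked at after their values were seen. Wipf1, the gene of most similar pattern to Gpr155 among 11151 genes, is also its protein-coding neighbour in GENCODE M21, on the same strand and with a gap of 43 kb. Wipf1 stood at 3.90 CPM in D2 Q175 and 5.64 CPM in D2 WT, and at 5.41 CPM in D1 Q175 and 8.47 CPM in D1 WT. The neighbour of Gpr155 on its other side, Scrn3, had log2 ratios of Q175 over WT of -0.35 in D2 and -0.27 in D1, and of D2 over D1 in WT of 0.12.

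Fig4, a phosphoinositide phosphatase gene 116 kb from Gpr6 on the same strand, was also higher in D2 neurons, at 65.3 CPM in D2 Q175 and 81.3 CPM in D2 WT, against 13.5 CPM in D1 Q175 and 14.5 CPM in D1 WT. Between D2 WT and D1 WT its log2 ratio was 2.48. With genotype it had log2 ratios of -0.32 in D2 and -0.11 in D1. Wasf1, on the other side of Gpr6 at 131 kb, had a log2 ratio of D2 over D1 in WT of 0.05.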
